A study of Mus musculus with 6 samples.

Results

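The genes described here are 10 transcription factors of the core and naive pluripotency network: Pou5f1, Sox2, Nanog, Klf2, Klf4, Klf5, Esrrb, Tfcp2l1, Tbx3 and Prdm14. They were chosen by name as known factors of this network, with earlier results of these data known, and are 10 of the 27179 Entrez Gene identifiers in the count table. All 10 passed the filter on low counts and are among the 14199 genes tested. RNA was sequenced after oligo(dT) selection from mouse embryonic stem cells of the ES-E14TG2a background, all with a FLAG epitope tag on Trim71. WT cells carried the tagged protein without further change, and R783H cells carried it with the amino-acid change R783H, which the series title calls a cause of hydrocephalus. Each group had 3 libraries, A, B and C, and all cells grew on gelatin in a medium that joins leukemia inhibitory factor (LIF) with the inhibitors CHIR99021 and PD0325901 (2i). Whether these letters stand for clones, cultures or library preparations is not given in the labels, nor is whether one or both alleles carry the change, so the p-values below measure the spread between these libraries, which may be technical.

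Embryonic stem cells renew themselves while keeping the ability to form every tissue of the embryo, and a small set of transcription factors that bind each other's genes holds them in this state. Pou5f1 (Oct4) and Sox2 bind DNA side by side as a pair and are needed in all pluripotent cells. Nanog, the Klf factors, Esrrb, Tfcp2l1, Tbx3 and Prdm14 mark the naive form found in the early epiblast. LIF acts through Stat3 on Klf4 and Tfcp2l1, GSK3 inhibition by CHIR99021 relieves repression of Esrrb by Tcf7l1, and MEK inhibition by PD0325901 blocks the FGF signal that drives cells out of the naive state. The Trim71 protein is an RNA-binding member of the TRIM-NHL family that is made in the same cells.

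Short sequences that factors of the network can bind were searched in the DNA next to its genes. The 250 bases before the RefSeq gene start on GRCm38.p6 are shown for the core factors, of which Pou5f1 and Nanog mRNA fell in R783H and Sox2 mRNA did not pass the test. Capitals mark matches, on either strand, to the short core sequences bound by octamer factors such as Oct4 (TTTGCAT), by SOX factors (CATTGT) and by KLF factors (GGGNGTG). The Pou5f1 window is chr17:35505782-35506031, the Sox2 window chr3:34649745-34649994 and the Nanog window chr6:122707239-122707488, all on the plus strand and printed 5′ to 3′.
Pou5f1: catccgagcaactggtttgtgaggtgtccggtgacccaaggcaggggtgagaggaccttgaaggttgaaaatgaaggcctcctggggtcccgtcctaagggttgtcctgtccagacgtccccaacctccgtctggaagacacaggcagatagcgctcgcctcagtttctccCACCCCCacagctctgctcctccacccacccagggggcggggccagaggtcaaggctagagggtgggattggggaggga
Sox2: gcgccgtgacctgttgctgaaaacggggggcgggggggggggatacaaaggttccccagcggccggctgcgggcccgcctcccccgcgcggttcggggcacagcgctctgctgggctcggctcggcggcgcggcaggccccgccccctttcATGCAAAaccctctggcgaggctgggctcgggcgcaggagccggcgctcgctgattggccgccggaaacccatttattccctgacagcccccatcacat
Nanog: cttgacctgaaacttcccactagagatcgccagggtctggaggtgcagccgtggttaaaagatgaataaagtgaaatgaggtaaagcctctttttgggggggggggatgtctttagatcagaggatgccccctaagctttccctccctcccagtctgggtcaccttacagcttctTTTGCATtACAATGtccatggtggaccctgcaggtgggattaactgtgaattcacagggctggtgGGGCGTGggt
In the Nanog window an octamer core on the gene's strand (75 to 69 bases before the start) lay next to a SOX core on the other strand (67 to 62 bases before it), followed by a KLF core nearer the start. The Sox2 window held an octamer core on the strand opposite to the gene, and the Pou5f1 window held a KLF core on that strand. Of 32817 promoter windows of this length, 4.13% held the octamer core, 10.7% the SOX core and 26.1% the KLF core. The cores of ESRRB (AAGGTCA, in 4.08% of windows), T-box factors (GGTGTGA, 3.33%) and TCF factors (CTTTGAT, 3.21%) were also searched on both strands, as was that of STAT factors (TTCNNNGAA, 7.01%). RefSeq windows were held for 7 of the 10 genes, 10 windows in all. A second Pou5f1 window (chr17:35508557-35508806), within the gene, had a SOX core 158 to 153 bases before its start. A second Nanog window (chr6:122707315-122707564) overlapped the first and held the same cores and a further KLF core. The second Esrrb window had no match to the sequences searched. The Tfcp2l1 window had 2 KLF cores, the upstream Esrrb window had a KLF core and a STAT core, and the windows of Klf2 and Klf4 had no match to the sequences searched. These matches describe the letters in the windows and no binding was measured.

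Total counts ran from 20894277 to 29079670 per library, and the R783H libraries, from 27807385 counts up, were the deeper ones. Values are given as CPM (counts scaled by TMM-adjusted library size), which removes differences in depth, and differences as log2 fold changes of R783H over WT. Trim71 mRNA, the gene that carries the change, stood at 152, 129 and 150.5 CPM in R783H A, B and C and at 131, 131 and 159 CPM in WT A, B and C. It was not called (log2 fold change 0.03, SE 0.08, adjusted p = 0.743), but with an offset for transcript length and GC content it was called lower, at -0.27 (adjusted p = 0.00214 by edgeR's quasi-likelihood test). The table of counts per gene cannot show the substitution itself. Markers of other cell types were low in both groups beside the 10 factors, whose summed level was 5928 to 5975 CPM in R783H and 5883 to 6005 CPM in WT. The summed level of 8 trophoblast markers was 16.9 to 17.5 CPM in R783H and 31.6 to 34.8 CPM in WT, with Elf5 and Plac1 at no more than 3 counts in any library. The 8 primitive endoderm markers summed to 10.5 to 11.3 and 5.46 to 7.67 CPM, the 8 mesoderm markers to 39.2 to 44.4 and 66.7 to 70.2 CPM, and the 8 neural markers to 83.3 to 91.4 and 117 to 122 CPM, in R783H and WT in that order. The 8 fibroblast or feeder markers summed to 2.18 to 3.13 and 3.28 to 3.86 CPM, with Postn, Dcn and Twist2 at no more than 3 counts in any library, and the 6 germ line markers to 9.33 to 12.9 and 15.3 to 16.8 CPM. The part of these small pools in the differences below was not tested. In bulk RNA, fewer cells that express a gene and less of its RNA per cell cannot be told apart.

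The summed level of the 10 factors overlapped between the groups, and it adds members that rose to members that fell, so it does not show that the members kept their levels. A gene was called at an adjusted p under 0.05 (edgeR, quasi-likelihood test, Benjamini-Hochberg across the 14199 genes). Of the 10 factors, 3 rose (Tfcp2l1, Tbx3 and Prdm14), 2 fell (Pou5f1 and Nanog) and 5 were not called (Sox2, Klf2, Klf4, Klf5 and Esrrb). Over all tested genes 64.5% were called, 33.5% higher and 30.9% lower, so the 5 of 10 among the factors were not above the background. With the length and GC offset the factors had 2 higher and 3 lower calls, and 67.6% of the genes with both properties were called, 30.4% higher and 37.2% lower. The ranges of R783H and WT were apart for 4 of the 10 factors, against 68.1% of all tested genes. The largest absolute log2 fold change among them was 0.23, in Nanog, which fell by 14.9%. A larger absolute log2 fold change was found in 63.8% of all tested genes. The median log2 fold change of the 10 factors was 0.03 and that of all tested genes 0.03, while the median of the absolute values was 0.11 for the factors and 0.34 for all tested genes.

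**Figure D1:**
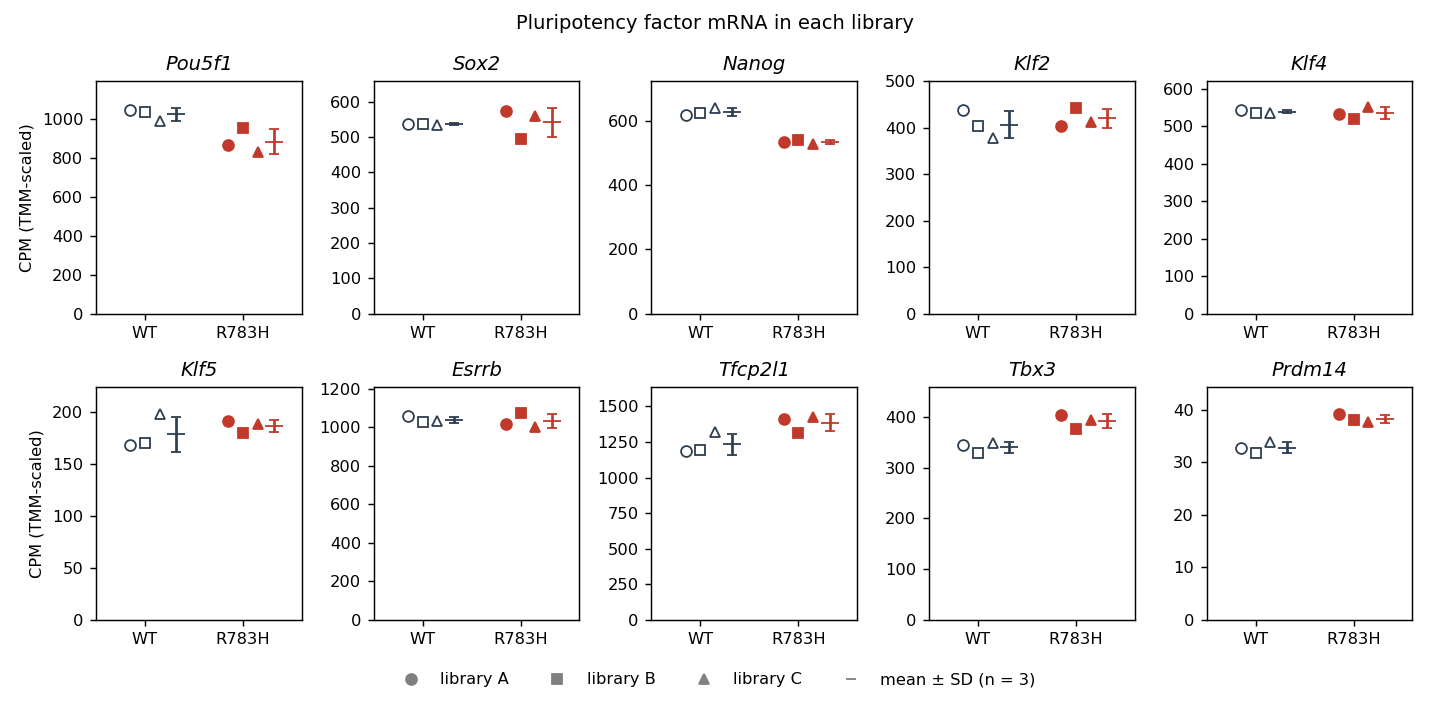
CPM of each of the 10 factors (vertical axis, from 0) in the 3 WT libraries (open symbols) and the 3 R783H libraries (filled symbols), with the mean and SD of each group beside them. The groups are apart for Pou5f1, Nanog, Tbx3 and Prdm14, and overlap for the other 6 genes.

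Pou5f1 (Entrez 18999, chr17:35506032-35510777) encodes Oct4, the POU-domain factor without which the pluripotent cells of the embryo do not form. Its mRNA stood at 864, 954 and 829 CPM in R783H A, B and C and at 1047, 1033 and 986 CPM in WT A, B and C. All 3 R783H libraries were below all 3 WT libraries, with R783H B nearest to WT. The mean fell from 1022 ± 31.8 to 882 ± 64.2 CPM (SD, n = 3 each). This is a log2 fold change of -0.21 (SE 0.05, adjusted p = 0.00491 by edgeR's quasi-likelihood test), a fall of 13.7%. It was -0.13 with scaling by library size alone and -0.09 with the length and GC offset, and was called in both. Its exons share 317 nt with Gm19553, annotated on the opposite strand, and the use of strand in counting is not given in the sources used here. No row of the counts carries the name Gm19553.

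Nanog (Entrez 71950, chr6:122707489-122714633) encodes a homeodomain factor that lowers the need of the cells for LIF. Nanog mRNA was at 535, 540.3 and 528 CPM in R783H A, B and C and at 618, 625 and 641 CPM in WT. The libraries of a group lay close together, and the groups were well apart. Nanog fell from 628 ± 11.7 to 535 ± 6.16 CPM (SD, n = 3 each), a log2 fold change of -0.23 (SE 0.04, adjusted p = 2.79e-04 by edgeR's quasi-likelihood test). Scaling by library size alone gave -0.15 and the length and GC offset -0.23, both called. The Nanog transcript holds stretches of at least 100 nt with at least 95% identity to transcripts of 61 other genes, the longest of 245 nt, so its count is uncertain to the extent that such reads were dropped or shared.

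Sox2 (Entrez 20674, chr3:34649995-34652461), the HMG-box partner of Oct4, was not called. It was at 573, 496 and 559 CPM in R783H A, B and C and at 537, 538 and 534 CPM in WT. R783H B lay below all WT libraries and R783H A and C above them. The log2 fold change was 0.02 (SE 0.05, adjusted p = 0.812 by edgeR's quasi-likelihood test), with a 95% interval from -0.10 to 0.13. The sign turned with RLE size factors (-0.01), without R783H A (-0.04) and without R783H C (-0.02).

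Ratios of counts within a library need no scaling between libraries. For each Pou5f1 count R783H A, B and C held 0.663, 0.520 and 0.674 Sox2 counts, while WT A, B and C held 0.513, 0.521 and 0.542, so the groups overlapped through R783H B. For Nanog the ratios were 0.620, 0.566 and 0.637 in R783H and 0.591, 0.605 and 0.650 in WT, which also overlapped. Esrrb had 1.18, 1.13 and 1.21 counts for each Pou5f1 count in R783H and 1.01, 0.993 and 1.05 in WT. All Esrrb ratios were thus higher in R783H, where Esrrb itself was not called and Pou5f1, the divisor, was called lower. The rise was not particular to Esrrb. The ratios of Klf2, Tfcp2l1, Tbx3 and Prdm14 were also higher in every R783H library than in any WT library. All these ratios share the divisor that was called lower. How many of all tested genes have such ratios was not counted, so the separation is not particular to these factors. For Klf4 the lowest R783H ratio (B) and the highest WT ratio (C) both rounded to 0.544. By the counts the R783H ratio was slightly the higher, so the Klf4 groups were only just apart. The ratios of Klf5 overlapped.

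The 3 Krüppel-like factors bind the same GC-rich sequence through similar zinc fingers and can stand in for each other in naive cells. None of the 3 was called (3 of 3 with an unadjusted p from 0.336 to 0.837 in edgeR's quasi-likelihood test). Klf2 (Entrez 16598, chr8:72319062-72321654), whose protein is stabilised by MEK inhibition, was at 404, 444 and 413 CPM in R783H A, B and C and at 438, 403 and 379 CPM in WT. Its 95% interval for the log2 fold change ran from -0.08 to 0.17, around 0.05. The Klf2 transcript has the highest GC content of the 10 (61.6%), and under the length and GC offset Klf2 was called higher, at 0.24 (adjusted p = 4.87e-05 by edgeR's quasi-likelihood test). Klf4 (Entrez 16600, chr4:55527137-55532475), a target of LIF and Stat3 and a reprogramming factor, was at 534, 519 and 552 CPM in R783H and at 543, 536 and 536 CPM in WT. The 95% interval of Klf4 ran from -0.10 to 0.08, around -0.01. Klf5 (Entrez 12224, chr14:99298691-99313412), needed for the early epiblast and trophectoderm, was at 191, 179 and 188 CPM in R783H and at 168, 169 and 198 CPM in WT. WT C was above all other libraries for Klf5 and WT A and B were below them. The 95% interval of Klf5 ran from -0.07 to 0.20, around 0.06, and without WT C the log2 fold change was 0.14 and was called (adjusted p = 0.0358 by edgeR's quasi-likelihood test).

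Esrrb (Entrez 26380, chr12:86361117-86521628), an orphan nuclear receptor that can replace Nanog in self-renewal, was at 1019.8, 1075 and 1004 CPM in R783H A, B and C and at 1057, 1026 and 1031 CPM in WT. The groups overlapped and the log2 fold change was -0.01 (SE 0.04, adjusted p = 0.897 by edgeR's quasi-likelihood test, 95% interval from -0.10 to 0.08).

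Tfcp2l1 (Entrez 81879, chr1:118627923-118685168), a CP2-family factor on which both LIF and GSK3 inhibition converge, had the highest CPM of the 10 factors. It was at 1413, 1316 and 1427 CPM in R783H A, B and C and at 1189, 1196 and 1319.6 CPM in WT. WT C lay just above R783H B, so the groups overlapped. Tfcp2l1 rose from 1235 ± 73.5 to 1386 ± 60.5 CPM (SD, n = 3 each), a log2 fold change of 0.17 (SE 0.05, adjusted p = 0.0150 by edgeR's quasi-likelihood test). This call was lost without R783H A (0.14), R783H C (0.13), WT A (0.14) or WT B (0.14). The Tfcp2l1 transcript is 9269 nt long, the median of all tested genes being 3254 nt, and with the length and GC offset the direction turned, to -0.17 (adjusted p = 5.95e-04 by edgeR's quasi-likelihood test). Its exons share 130 nt with Gm23497 on the same strand, a name that no row of the counts carries.

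Tbx3 (Entrez 21386, chr5:119670534-119684724), a T-box factor that helps to sustain Nanog expression, was at 404, 376 and 394 CPM in R783H A, B and C and at 345, 328 and 349 CPM in WT. All R783H libraries were above all WT libraries. Tbx3 rose by 0.20 on the log2 scale (SE 0.04, adjusted p = 0.00207 by edgeR's quasi-likelihood test). With the length and GC offset the change was 0.08 and was not called (adjusted p = 0.0877). Its exons share 115 nt with the antisense gene Tbx3os1, a name that no row of the counts carries.

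Prdm14 (Entrez 383491, chr1:13113428-13127163) encodes a PR-domain zinc-finger protein that represses DNA methyltransferases and FGF receptors in naive cells. It was the least abundant of the 10, at 39.2, 38.0 and 37.7 CPM in R783H A, B and C and at 32.8, 31.8 and 33.9 CPM in WT, from 1079 to 1179 counts in an R783H library and from 662 to 781 in a WT library. The groups did not overlap. Prdm14 rose by 0.22 on the log2 scale (SE 0.05, adjusted p = 0.00352 by edgeR's quasi-likelihood test), or 16.8%, and by 0.21 with the length and GC offset.

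**Figure D2:**
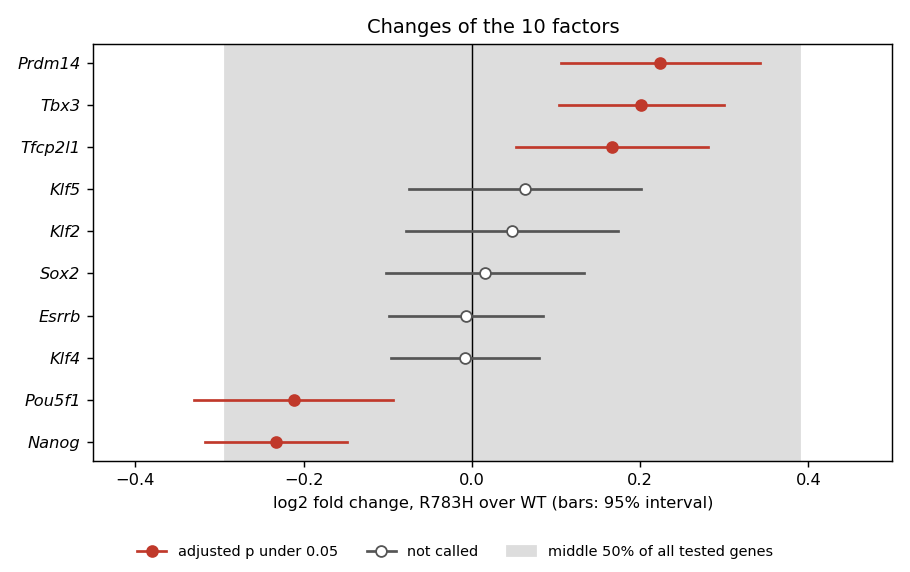
Log2 fold change of R783H over WT (horizontal axis) for each of the 10 factors, with its 95% interval as a bar and called genes filled in red. All 10 points lie inside the grey band, which spans the middle 50% of all tested genes, from -0.29 to 0.39.

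The order of the factors by level was read from RPKM, here the CPM divided by the length in kilobases of the longest GENCODE transcript. In WT the order was Pou5f1 (724 to 768 RPKM over the 3 libraries), Nanog (279.6 to 289.9), Sox2 (259.8 to 262), Esrrb (239 to 246) and Klf2 (205 to 237). Klf4 (177 to 179 RPKM), Tfcp2l1 (128 to 142), Tbx3 (65.9 to 70.0), Klf5 (49.99 to 59.0) and Prdm14 (12.4 to 13.2) came next. No neighbours in the WT order overlapped in RPKM. In R783H Pou5f1 was again highest, at 609 to 700.3 RPKM. Below it Sox2 (241 to 278), Nanog (239 to 244), Esrrb (233 to 250.1) and Klf2 (219 to 240.3) overlapped with their neighbours, so their order in R783H was not beyond the spread. Klf4, Tfcp2l1, Tbx3, Klf5 and Prdm14 followed without overlap and in the order seen in WT. Per length of all annotated exons the mean of Pou5f1 in WT was 455 RPKM in place of 750.3 and that of Esrrb 172 in place of 241. Esrrb then stood below Klf2 and Klf4, and Pou5f1 was still first.

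**Figure D3:**
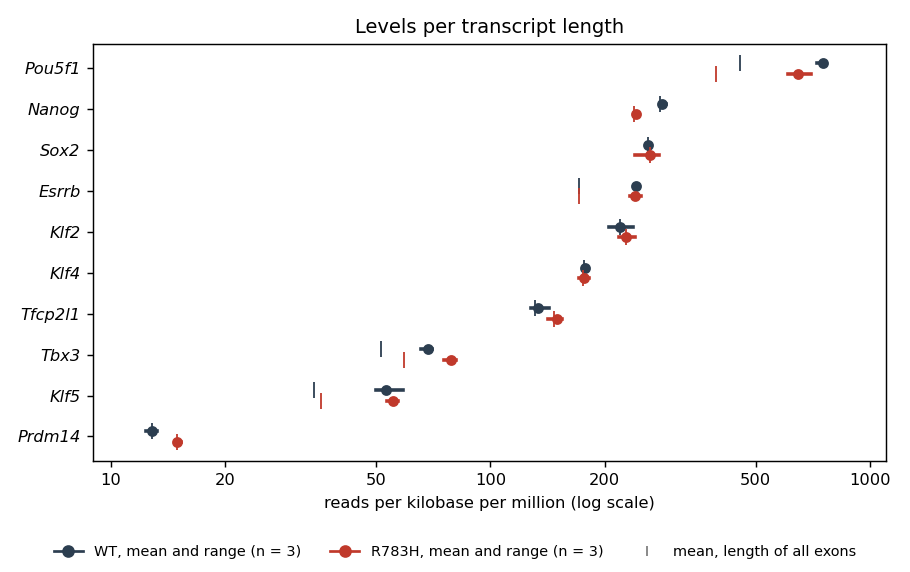
RPKM of the 10 factors on a log axis, as the mean (point) and range (line) of the 3 WT and the 3 R783H libraries, with ticks for means per length of all exons. Pou5f1 is highest at 750.3 RPKM in WT and Prdm14 lowest at 12.8 RPKM.

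Further factors of the same network were counted beside the 10. Of 20 such factors, all tested, 16 passed the test, 5 higher and 11 lower, beside 64.5% of all tested genes. Their median log2 fold change was -0.14, and the median of the absolute values was 0.29, beside 0.11 for the 10 factors and 0.34 for all tested genes. With the length and GC offset 2 were higher and 12 lower. Utf1, a chromatin-bound protein of pluripotent cells, fell from 266 ± 14.5 to 167 ± 11.2 CPM (-0.67, SE 0.06, adjusted p = 2.27e-06), and by 0.40 with the length and GC offset. Gbx2, a homeobox target of LIF and Stat3, fell by 0.43 (SE 0.06, adjusted p = 6.19e-05), and Dppa2, which keeps developmental promoters free of methylation, fell by 0.42 (SE 0.05, adjusted p = 3.39e-05). Sall1, a zinc-finger relative of Sall4, rose from 212 ± 9.06 to 307 ± 14.0 CPM (0.53, SE 0.05, adjusted p = 3.55e-06). Zfp42 (Rex1), the usual reporter gene of naive cells, was added after its values were seen: at 905, 868 and 885 CPM in R783H and 1125, 1141 and 1133 CPM in WT, it fell by 0.36 (SE 0.04, adjusted p = 1.13e-05).

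Genes of the signals that feed the network were also tested: 22 components and response genes of LIF, Wnt, BMP and FGF signalling. Calls were made for 17 (77.3%), 9 higher and 8 lower, beside 64.5% of all tested genes. The list median of 0.03 became -0.03 without R783H B and -0.06 with the length and GC offset. Il6st (gp130), the receptor subunit through which LIF signals, rose from 62.2 ± 5.06 to 97.4 ± 2.32 CPM (0.65, SE 0.06, adjusted p = 3.57e-06), and by 0.33 with the length and GC offset. Stat3, named after its values were seen, was not called, at 0.02 (SE 0.04, adjusted p = 0.625). The BMP response genes Id3 and Id1 fell by 1.16 (SE 0.05, adjusted p = 4.46e-08) and by 0.87 (SE 0.08, adjusted p = 2.57e-06). Spry4, a feedback inhibitor of FGF signalling, fell by 0.57 (SE 0.05, adjusted p = 1.22e-06).

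Factors known from the exit of the naive state were called in 10 of 12 cases (83.3%), 4 higher and 6 lower. Of all tested genes 64.5% were called. The median of the exit factors was -0.13 and the median of their absolute values 0.44, beside 0.34 for all tested genes. Otx2, which redirects Oct4 to new enhancers at exit, rose from 2.77 ± 0.292 to 11.4 ± 0.546 CPM, or by 2.04 (SE 0.11, adjusted p = 1.16e-07). Even in R783H this was far under the CPM of the core factors, though CPM is not divided by transcript length. Fnip2, a partner of folliculin in the cytoplasmic retention of Tfe3, rose by 1.07 (SE 0.07, adjusted p = 2.50e-07). Etv4, an ETS factor induced by ERK signalling, fell by 1.21 (SE 0.05, adjusted p = 3.55e-08), and Foxd3, a forkhead factor of the epiblast, fell by 0.97 (SE 0.06, adjusted p = 3.15e-07).

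A list of 20 genes described as bound or regulated by the 10 factors had 15 called, 8 higher and 7 lower. The share called among all tested genes was 64.5%, with 33.5% higher and 30.9% lower. The median of the list was -0.04 and the median of its absolute values 0.32, beside 0.34 for all tested genes. Lin28a, an RNA-binding inhibitor of let-7 maturation, fell from 376 ± 1.34 to 174 ± 2.60 CPM (-1.11, SE 0.04, adjusted p = 1.19e-08). Trim28, a co-repressor of retroelements, fell by 0.87 (SE 0.06, adjusted p = 3.98e-07), and Fbxo2 fell by 0.73 (SE 0.12, adjusted p = 3.27e-04). Lefty1, an inhibitor of Nodal, rose by 0.70 (SE 0.07, adjusted p = 1.05e-05). Fgf4, the classical joint target of Oct4 and Sox2 and named after its values were seen, rose by 0.31 (SE 0.04, adjusted p = 4.54e-05). A gene picked in this way does not stand for the list, which had 8 higher and 7 lower calls.

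**Figure D4:**
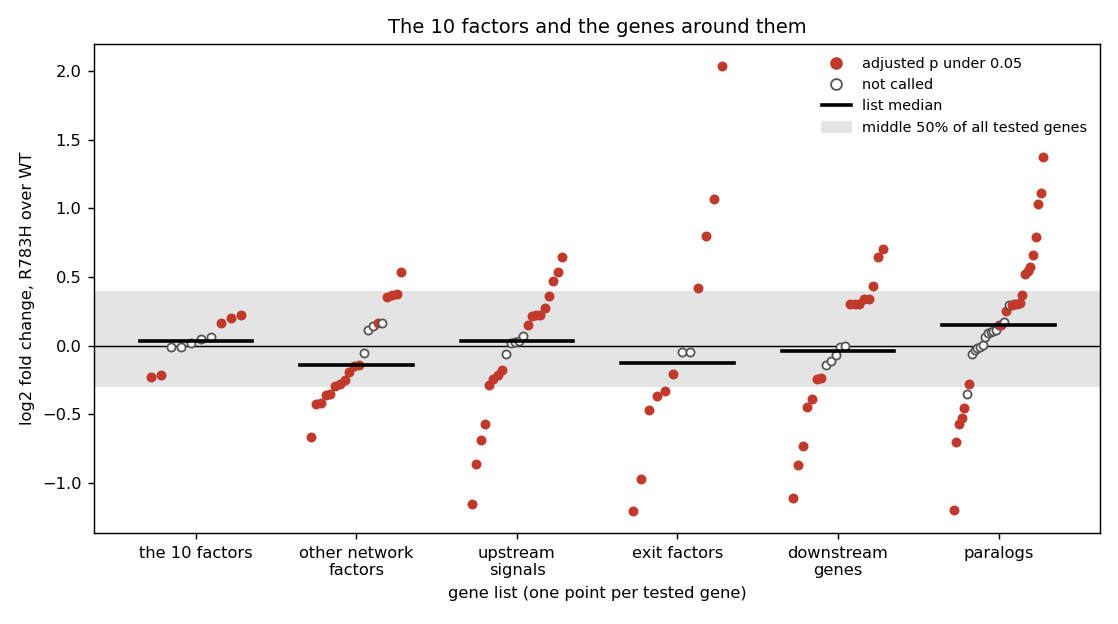
Log2 fold change of R783H over WT (vertical axis) for every tested gene of the 10 factors and of 5 lists around them, with called genes filled, list medians as black lines and the middle 50% of all tested genes in grey. The 10 factors stay between -0.23 and 0.22, while the other lists reach absolute values from 0.67 (other network factors) to 2.04 (exit factors).

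Paralogs of the factors were counted in the same way. Of 39 listed, 35 passed the filter, and 21 of these (60.0%) were called, 15 of them higher and 6 lower, beside 64.5% of all tested genes. Their median was 0.15, which the length and GC offset took to -0.0017, with 13 higher and 9 lower. Prdm1, which directs germ cell specification, rose by 1.38 (SE 0.14, adjusted p = 7.48e-06) from 2.62 ± 0.433 CPM, beside 0.22 for Prdm14. Tfcp2, the founding member of its family, rose by 1.11 (SE 0.07, adjusted p = 3.15e-07) to 27.4 ± 0.788 CPM, beside 0.17 for Tfcp2l1. Klf12 rose by 1.03 (SE 0.11, adjusted p = 1.40e-05) while Klf2, Klf4 and Klf5 were not called. Pou3f1 (Oct6), a POU factor of the later epiblast, fell by 1.20 (SE 0.16, adjusted p = 4.83e-05) to 1.95 ± 0.363 CPM. Klf17, Pou2f2, Esrrg and Tbx2 were too low to test. Differences between these lists and the 10 factors are given as counts and medians and were not tested.

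**Figure D5:**
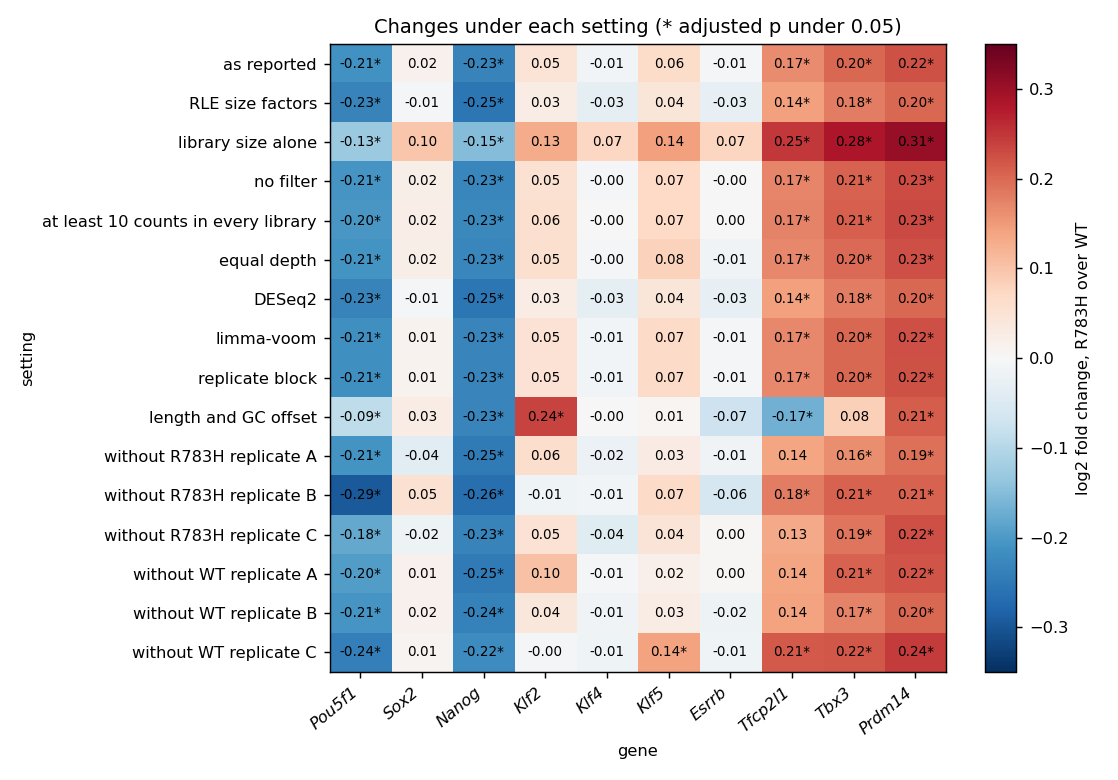
Log2 fold change of each factor (columns) under each setting of the analysis (rows), with colour and number giving the value and a star marking an adjusted p under 0.05. Nanog, Pou5f1 and Prdm14 carry a star in all 16 rows, and Tfcp2l1 turns from 0.17 to -0.17 with the length and GC offset.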

How the data were processed

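Poly(A)-selected RNA of 3 R783H and 3 WT libraries was measured, and the authors deposited 1 table of raw read counts per Entrez gene. Per the submitters' processing notes CASAVA 1.4, HISAT2 and SAMtools were used with build mm10, and per the file headers each column came from its own alignment file. The counting tool and strand use are not given in the sources used here. Symbols and gene positions came from RefSeq GRCm38.p6 (25275 identifiers matched), and length, GC content and exon overlaps from GENCODE M21, with similar transcripts searched by BLAST 2.17.0.

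Genes were kept with filterByExpr (minimum count 10, minimum total 15), scaled by TMM and fitted with group alone in edgeR 4.0.16 (R 4.3.3). Every printed adjusted p is from its quasi-likelihood test, adjusted by Benjamini-Hochberg across the genes of the fit in question. These were 14199 in the main fit and 13763 with the length and GC offset, and fits without a library were filtered again. An SE is the absolute log2 fold change divided by the square root of F. The common biological coefficient of variation was 5.45%. Alternatives were RLE factors, library size alone, other filters, DESeq2 1.42.0, limma 3.58.1 (voom), equal depth, a replicate block, leaving out each library, and an offset fitted per library on transcript length and GC content (splines, 5 degrees of freedom each, 13763 genes). The steps were tested on simulated data. Members and lists were chosen with earlier results of these data known. Named were the 10 factors, Trim71 and, per list, up to 4 called genes with the largest change and at least 50 counts on average in the higher group. RPKM used the longest transcript, and the length of all exons was added after the data were seen.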

Additional observations from a re-analysis of the deposited data

How the results depend on the processing

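The calls of Pou5f1, Nanog and Prdm14 and their directions held under all 15 alternatives, and 5 of the 10 factors were called in each alternative that kept all libraries. These were not always the same 5. With the length and GC offset Tbx3 lost its call, Klf2 was called higher and Tfcp2l1 was called lower. Leaving out single libraries gave 4 to 6 called factors, 2 to 4 higher and 2 lower, and 8161 to 9882 called genes in all. The replicate block gave 5 called factors and 9260 called genes and changed no call among the factors. Same-letter libraries correlated in their deviations from the group means at r = -0.07, 0.0068 and 0.0851 for A, B and C. These values run across genes, which are not independent replicates. Pairs of unlike letters ran from r = -0.1332 to 0.1264. Whether the letters pair the libraries is not settled by these values, as a shared step that moved few genes could leave them small. R783H A and R783H B correlated best with another letter. The length and GC offset gave -0.17 for Tfcp2l1, 0.0822 for Tbx3, 0.24 for Klf2 and -0.27 for Trim71. Library size alone gave 0.0731 for Klf4 and 0.0745 for Esrrb, RLE factors and DESeq2 each gave -0.0064 for Sox2, and at least 10 counts in every library gave 0.0003 for Esrrb. With each library left out, Sox2 ran from -0.0395 to 0.0539, Klf2 from -0.0149 to 0.10, Klf5 from 0.0184 to 0.14, Esrrb from -0.0594 to 0.0039, Tfcp2l1 from 0.13 to 0.21 and Trim71 from -0.0219 to 0.13.

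The median of the factors was 0.0103 with RLE factors and with DESeq2, 0.0029 with the offset, 0.11 with library size alone and 0.0034 to 0.0242 with a library left out. Library size alone moved the list medians to -0.0634 (other factors), 0.11 (signals), -0.046 (exit), 0.0428 (targets) and 0.23 (paralogs), and that of all tested genes from 0.03 to 0.11. The exit median was -0.15 with RLE factors and DESeq2. The offset gave -0.0602 (signals), -0.19 (exit) and -0.0017 (paralogs). Leaving out a library gave -0.0263 to 0.0536 (signals), -0.16 to -0.12 (exit), -0.0666 to -0.0321 (targets) and 0.11 to 0.19 (paralogs). The cause of these shifts was not tested.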

Other observations

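Rows next to the factors in the table were counted too, and were chosen after their values were seen. Sox2ot, the long non-coding RNA within whose span Sox2 lies, was counted 28, 20 and 29 times in the R783H libraries and 7, 7 and 14 times in the WT libraries. It rose by 1.03 on the log2 scale (SE 0.33, adjusted p = 0.0172 by edgeR's quasi-likelihood test), while Sox2 itself was not called. Pou5f1-rs4, a transcribed pseudogene of Pou5f1, had 81 to 98 counts in R783H and 52 to 94 counts in WT and was not called (-0.13, SE 0.18, adjusted p = 0.548 by edgeR's quasi-likelihood test). Next to the 21037 to 27067 counts of Pou5f1 in a library these are few.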
